A study of Homo sapiens with 3 samples.

Results

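The genes described here are the WNT ligands, their cell surface receptors and their secreted antagonists. They were taken as a list of 41 gene names with no threshold on any value, of which 38 have at least 1 probe set that names the gene alone, out of 19735 genes measured in this way. The 38 genes are 15 of 17 ligands, 14 of 15 receptors and all 9 secreted antagonists, and they carry 82 probe sets. The probe sets of WNT3 and of FZD8, 3 for each, also name a second gene and were left out, and WNT3A was not analysed here.

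WNT proteins are secreted, lipid-modified ligands that bind Frizzled (FZD) receptors on neighbouring cells. Together with the co-receptors LRP5 and LRP6, a bound Frizzled halts the breakdown of beta-catenin, which then enters the nucleus and acts with LEF/TCF factors, while other ligands, such as WNT5A and WNT11, are best known for routes that do not use beta-catenin. Secreted Frizzled-related proteins (SFRP and FRZB) bind WNT proteins outside the cell, DKK1, DKK2 and DKK4 bind the LRP co-receptors, and LGR4, LGR5 and LGR6 are receptors of R-spondins, which strengthen the signal. WNT signals take part in the induction of the neural crest, from which neuroblastoma arises.

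Untreated cells of the human neuroblastoma lines IMR-32 and NGP were compared with Reference, a pool of RNA from 16 cancer cell lines that the labels do not name, each on 1 Affymetrix U133 Plus 2.0 array. IMR-32 was grown in Minimum Essential Medium and NGP in RPMI 1640 medium, both with serum, so a difference between the lines cannot be told apart from one between the media, and MYCN is amplified in both lines. The values are MAS5 signals on a linear scale. The expression ratio of a gene is the median over its probe sets of the log2 ratio of a line over the pool, or of NGP over IMR-32, and both ratios over the pool share the same pool array. With 1 array per sample there is no replicate check and no p-value, and the number of arrays limits the precision.

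A gene was called higher or lower within the top or bottom 7% of the ratios of all genes. The cut-offs lay at 1.68 and -2.83 for IMR-32, at 1.84 and -2.88 for NGP, and at 1.95 and -1.84 for NGP over IMR-32. The median ratios of all genes were -0.23, -0.22 and 0.02. A probe set was named bright in a comparison where the higher of its signals reached the median of that array, which was 89.9 in IMR-32, 98.8 in NGP and 119 in the pool, and dim otherwise. The brightest probe set of a gene is the one with the highest mean log2 signal over the 3 arrays. The table holds no detection calls, so a fold change that starts from a dim signal is not firm in size. The spread of a ratio among probe sets that share a gene (SD) was 1.31, 1.41 and 1.28 over all genes and 1.46, 1.58 and 1.39 over the 25 members with several probe sets.

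The labelled cell type was checked on its markers. Of 11 sympathetic markers measured, 6 were called higher than the pool in IMR-32 (54.5%) and 9 in NGP (81.8%), against 7.0% of all genes. None was called lower, while 4 of the 11 were not above the pool in IMR-32, namely TH (-1.40), GATA2 (-1.34), DBH (-0.33) and CHGB (-0.01). All 6 epithelial markers were called lower in both lines, with summed signals of 404 in IMR-32, 307 in NGP and 66783 in the pool. Of 7 mesenchymal markers 1 was called higher and 1 lower in IMR-32 (14.3% each), and 1 and 2 in NGP (14.3% and 28.6%). Of 4 haematopoietic markers LCP1 alone was called, lower in IMR-32 (-4.13) and NGP (-3.39). Of 4 melanocytic markers PMEL alone was called, higher in NGP (2.30). The low ratios described here are thus set against a pool with abundant epithelial transcripts, whose part in them was not tested. In a pool, fewer cells of a type and less RNA per cell cannot be told apart.

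Most of the WNT genes were not called against the pool in either line. In IMR-32, 2 of 38 were called higher (5.26%, against 7.0% of all genes) and 2 were called lower (5.26%, against 7.0%). In NGP, 5 were called higher (13.2%, against 7.0%) and 3 lower (7.89%, against 7.0%). The lines had as many calls as each other under some alternatives, with 4 higher and 3 lower in IMR-32 and 5 and 2 in NGP after 32 was added to each signal, and no difference in number between them was tested. Set directly against IMR-32, NGP was called higher for 6 of 38 (15.8%, against 7.0%) and lower for 2 (5.26%, against 7.0%).

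Calls that rest on a bright probe set past the same cut-off were fewer. In IMR-32 they were 1 higher (2.63%, against 4.34% of all genes) and 2 lower (5.26%, against 4.73%), and in NGP 4 higher (10.5%, against 4.31%) and 2 lower (5.26%, against 5.07%). For NGP over IMR-32 all calls were of this kind, 6 higher (15.8%, against 3.02%) and 2 lower (5.26%, against 3.50%). In all, 14 members were called in some comparison, 11 of them with a bright probe set. WNT1, WNT4 and FZD9 were called from dim signals alone, and 24 members were not called. The median ratio of the 38 genes was -0.44 in IMR-32, -0.43 in NGP and 0.09 for NGP over IMR-32.

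**Figure D1:**
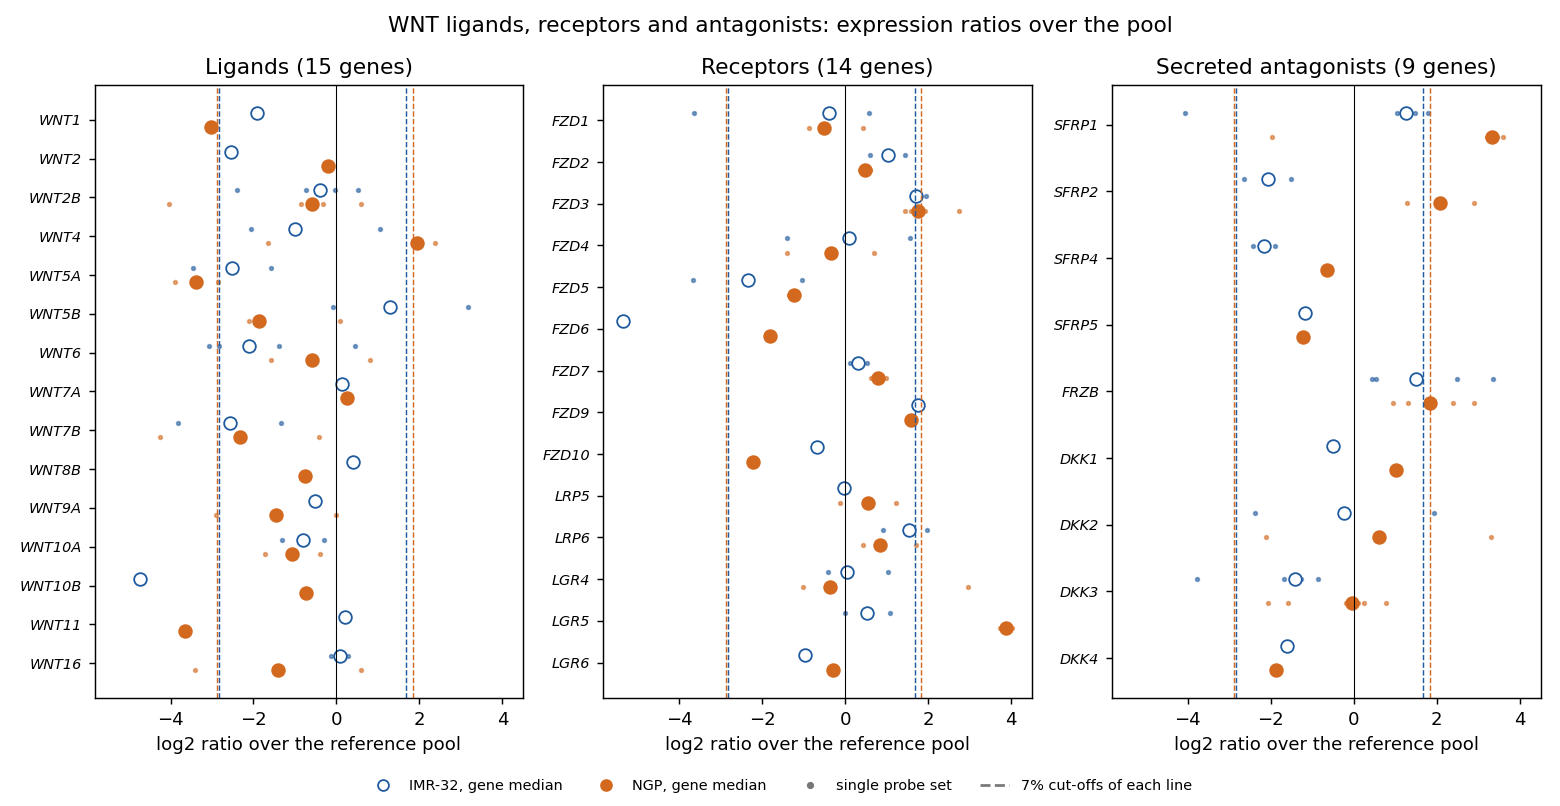
Log2 ratios over the reference pool (x-axis) of each measured ligand, receptor and secreted antagonist (y-axis) as the median over its probe sets, where open circles stand for IMR-32 and filled circles for NGP, with single probe sets as small dots and the cut-offs of each line as dashed lines. LGR5 and SFRP1 lie far to the right in NGP (3.89 and 3.34), and FZD6 (-5.36) and WNT10B (-4.74) far to the left in IMR-32.

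The ligands were the dimmest class. For 6 of 15 (WNT1, WNT4, WNT7A, WNT8B, WNT9A and WNT10A) no probe set reached the array median in any array, which is 40.0% against 25.6% of all genes. WNT6 and WNT16 alone among the ligands reached it in all 3 arrays. The median ligand ratio was -0.82 in IMR-32 and -1.07 in NGP, below the medians of all genes. A single ligand was called higher than the pool, WNT4 in NGP (6.67%, against 7.0% of all genes), at 1.93 from dim signals.

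WNT5A, a ligand of beta-catenin-independent signalling, was low in both lines. Its brightest probe set had signals of 72.3 in IMR-32, 53.5 in NGP and 797 in the pool, so that only the pool signal reached its array median. The ratio over both probe sets was -2.52 in IMR-32, short of the cut-off, and -3.38 in NGP (10.4-fold lower). Without probe sets of the _s_at and _x_at kind, which can detect several transcripts, the NGP ratio was -2.85 and the call was lost (cut-off -2.93).

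WNT11, which acts in convergent cell movements, differed between the lines. Its 1 probe set had signals of 149 in IMR-32, 10.2 in NGP and 129 in the pool. IMR-32 and the pool lay close together, and NGP was far below both, with ratios of -3.66 over the pool and -3.87 over IMR-32. With 32 added to each signal these were -1.93 and -2.10, and both calls remained.

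WNT5B, a close relative of WNT5A, showed the same order of the lines. The brightest of its 3 probe sets had signals of 171 in IMR-32, 19.0 in NGP and 69.4 in the pool, and only that of IMR-32 reached its array median. Another had a higher IMR-32 signal, at 327, with 8.32 in NGP and 36.2 in the pool. NGP over IMR-32 was -3.17 (9.02-fold lower), with probe sets at -5.30, -3.17 and 0.18, the last of them dim in all arrays. Over the pool the ratios were 1.30 in IMR-32 and -1.87 in NGP, neither of them called.

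The opposite order was found for WNT10B and WNT2. WNT10B, a ligand known for beta-catenin signalling, had signals of 10.3 in IMR-32, 165 in NGP and 275 in the pool in its 1 probe set. IMR-32 stood apart from the other arrays, at -4.74 against the pool, and NGP exceeded it by 4.0 (16.0-fold). The IMR-32 signal was dim, which leaves both sizes uncertain, and with 32 added to each signal they were -2.86 and 2.22. The only probe set of WNT2 had signals of 22.5 in IMR-32, 113 in NGP and 130 in the pool, so that NGP and the pool were close and IMR-32 was low. NGP exceeded IMR-32 by 2.33 (5.02-fold), and the ratio of IMR-32 over the pool, -2.53, did not pass the cut-off.

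WNT1 was called lower in NGP, at -3.02, from dim signals with a pool signal of 38.4. The remaining ligands were not called in any comparison. WNT7B was at -2.57 in IMR-32 and -2.33 in NGP, and WNT6 at -2.10 and -0.60. WNT2B, WNT7A, WNT8B, WNT9A, WNT10A and WNT16 lay between -0.82 and 0.40 in IMR-32 and between -1.46 and 0.25 in NGP. WNT7A was close to the pool in both lines (0.14 and 0.25), with dim signals of 13.8, 14.9 and 12.5.

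The receptors were brighter and nearer to the pool. Of 14 measured, 9 reached the array median in all 3 arrays (64.3%, against 52.7% of all genes), namely FZD1, FZD2, FZD3, FZD4, FZD7, LRP5, LRP6, LGR4 and LGR5. FZD9, FZD10 and LGR6 reached it in none. The median receptor ratio was 0.07 in IMR-32 and 0.10 in NGP. In IMR-32 FZD3 and FZD9 were called higher (14.3%, against 7.0% of all genes) and FZD6 lower (7.14%, against 7.0%). In NGP LGR5 was called higher (7.14%, against 7.0%) and none lower.

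FZD3, a Frizzled needed for the growth and guidance of axons, was above the pool in both lines in each of its 4 probe sets. The brightest had signals of 2244 in IMR-32, 2781 in NGP and 734 in the pool. The ratio was 1.70 in IMR-32 (3.25-fold, probe sets from 1.61 to 1.94), just past the cut-off, and 1.75 in NGP (3.37-fold, probe sets from 1.45 to 2.75), below the higher NGP cut-off. NGP over IMR-32 was 0.07, so the lines did not differ by more than the spread between probe sets. The IMR-32 call was lost under 6 of the 10 alternatives, among them quantile normalization (1.83, cut-off 1.98).

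LRP6, the WNT co-receptor, lay above the pool in all 3 of its probe sets in both lines without a call. The signals of the brightest were 2227 in IMR-32, 1847 in NGP and 568 in the pool, and the ratios were 1.55 (probe sets from 0.92 to 1.97) and 0.84 (0.44 to 1.70). FZD2 was at 1.03 in IMR-32 and 0.49 in NGP, and FZD7 at 0.31 and 0.80. The related co-receptor LRP5 was at -0.04 and 0.56.

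FZD6, a Frizzled of the planar polarity route, was low in IMR-32. Its 1 probe set had signals of 28.4 in IMR-32, 331 in NGP and 1169 in the pool, in which NGP lay between the other arrays. The ratios were -5.36 in IMR-32 (41.1-fold lower) and -1.82 in NGP, which was not called. NGP exceeded IMR-32 by 3.54 (11.6-fold), and by 2.59 with 32 added to each signal. FZD5 had the same order without a call, at -2.35 in IMR-32 and -1.24 in NGP. Only 1 of its 2 probe sets showed that order, with NGP over IMR-32 at 2.31. The other was at -0.08 from dim signals.

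LGR5, an R-spondin receptor and stem cell marker whose own transcription is driven by beta-catenin, was high in NGP alone. One probe set had signals of 252 in IMR-32, 3379 in NGP and 253 in the pool, and the other 123, 949 and 58.0. IMR-32 and the pool were equal in the first probe set, and NGP was far above both in each. The ratio in NGP was 3.89 (14.8-fold, probe sets at 3.74 and 4.03), the 119th highest of all genes. NGP exceeded IMR-32 by 3.35 (10.2-fold), while IMR-32 over the pool was 0.54. Both calls of LGR5 remained under all 10 alternatives. LGR4 was at 0.05 in IMR-32 and -0.37 in NGP, and LGR6, with dim signals, at -0.96 and -0.29.

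LGR5 lies on the long arm of chromosome 12, which in NGP also holds amplified segments. In the order of measured genes (GRCh38.p14), CNOT2 and KCNMB4, which are 5 and 4 places before it, were called higher in NGP (3.09 and 2.38), and KCNMB4 also in IMR-32 (1.74). The 3 genes between them and LGR5 were not, with PTPRB at -0.93, PTPRR at 0.52 and TSPAN8 at -2.99. The brightest PTPRB probe set was below the array median in every array, and TSPAN8 had a dim NGP signal of 54.8. On the other side ZFC3H1, THAP2 and TMEM19 were at 0.44, 0.74 and 0.26. The copy number of LGR5 was not analysed here, and its part in the ratio was not tested.

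**Figure D2:**
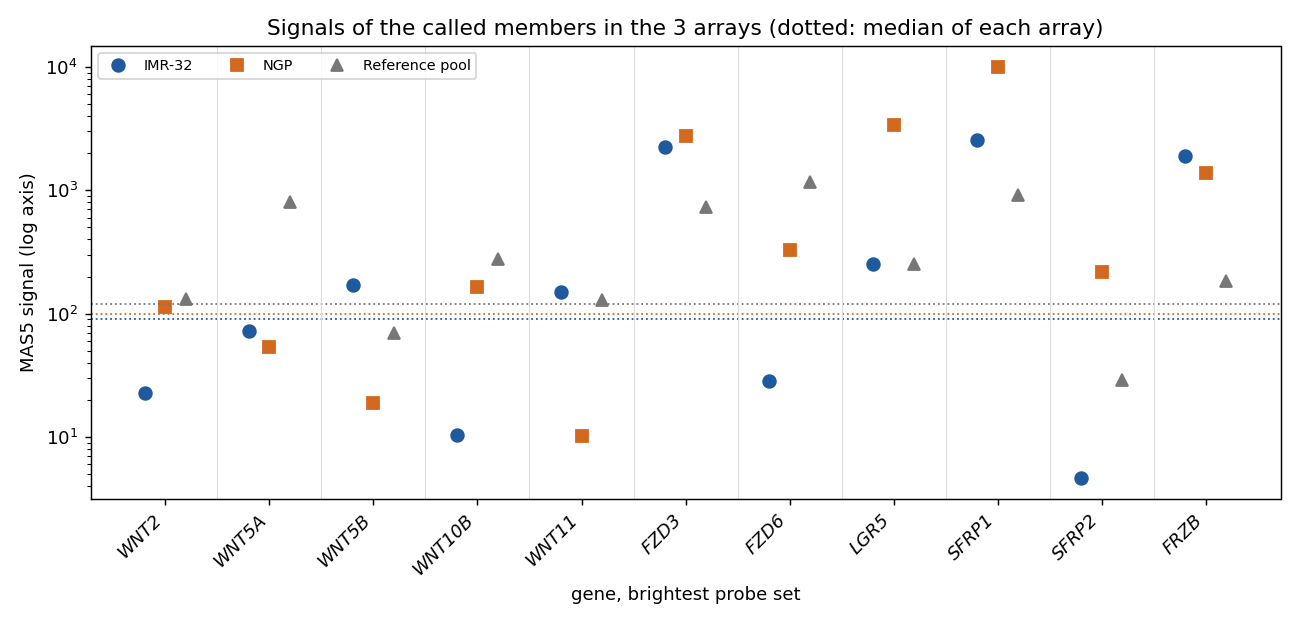
MAS5 signals on a log axis (y-axis) of the 11 members called with a bright probe set (x-axis, brightest probe set of each gene) in IMR-32, NGP and the reference pool, with the median signal of each array as a dotted line. NGP is highest for LGR5 (3379), SFRP1 (10083) and SFRP2 (216), and IMR-32 is far below the other arrays for FZD6 (28.4) and WNT10B (10.3).

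Of the 9 secreted antagonists, SFRP1 and SFRP2 were called higher in NGP than in IMR-32 (22.2%, against 7.0% of all genes) and none lower. In that comparison 7 of the 9 had ratios above 0 (77.8%, against 50.8% of all genes), with SFRP5 at -0.05 and DKK4 at -0.27, and the median of the class was 1.27, against 0.02 for all genes. Over the pool, the median was -1.17 in IMR-32 with none called, and 0.61 in NGP. In NGP SFRP1, SFRP2 and FRZB were called higher (33.3%, against 7.0% of all genes) and none lower.

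SFRP1, which binds WNT proteins and Frizzleds, was graded over the 3 samples in its bright probe sets. Its brightest probe set had signals of 2549 in IMR-32, 10083 in NGP and 915 in the pool, all above the array medians. The ratio in NGP was 3.34 (10.1-fold) and that in IMR-32 was 1.26, below the cut-off. The 3 probe sets that were bright over the pool lay between 3.22 and 3.60 in NGP, and a dim one was at -1.96. In IMR-32 the bright ones lay between 1.05 and 1.80 and the dim one at -4.06. With the mean over probe sets the ratios were 0.07 in IMR-32 and 2.08 in NGP, so IMR-32 was then close to the pool. NGP over IMR-32 was 2.04 (4.11-fold), with all 4 probe sets between 1.80 and 2.17. That call was lost with the brightest probe set alone (1.98, cut-off 2.08).

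SFRP2, a relative of SFRP1, reached the array median in NGP only. The brighter of its 2 probe sets had signals of 4.66 in IMR-32, 216 in NGP and 28.9 in the pool, and the other 9.20, 63.4 and 26.2. NGP was the highest array in both. The ratios were 2.09 in NGP and -2.07 in IMR-32. Against IMR-32, NGP was higher by 4.16 (17.9-fold). As the IMR-32 and pool signals were dim the size is not firm, and with 32 added to each signal the last ratio was 1.99.

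FRZB, an antagonist first found in cartilage, was above the pool in both lines in all 4 probe sets. The brightest had signals of 1890 in IMR-32, 1387 in NGP and 185 in the pool, at 3.35 and 2.91 over the pool. The remaining probe sets were lower, down to 0.45 in IMR-32 and 0.95 in NGP, and over all of them the ratios were 1.51 in IMR-32 and 1.85 in NGP (3.60-fold), just past the NGP cut-off. That call was lost under 5 of the 10 alternatives, while IMR-32, just short of its own cut-off, was called higher under 6 of them, for example with the brightest probe set (3.35, cut-off 1.79). NGP over IMR-32 was 0.20, less than the spread between probe sets.

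Of the Dickkopf genes none was called. DKK1, an LRP antagonist and target of beta-catenin, had signals of 3814 in IMR-32, 10889 in NGP and 5370 in the pool in its 1 probe set, with ratios of -0.49 and 1.02. DKK3, a divergent member of the family, was below the pool in IMR-32 in all 6 probe sets (-1.41, from -3.79 to -0.85), while in NGP it was at -0.05. NGP over IMR-32 was 1.27 for DKK3 and 1.51 for DKK1, and all 6 DKK3 probe sets were above 0. DKK2 was at -0.22 and 0.61 with 2 probe sets of opposite sign in each line, and DKK4 was dim throughout. SFRP4 was at -2.17 and -0.64, and SFRP5 at -1.17 and -1.22.

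Promoter windows of 300 bases, from 250 bases before to 50 after the transcript start (RefSeq, GRCh38.p14), are shown for the called members that have a bright probe set and a single window in the table used, so that the sequence next to these differences can be seen. They are FRZB (chr2:182866588-182866887), SFRP2 (chr4:153789034-153789333) and WNT2 (chr7:117323009-117323308), all on the minus strand and written 5′ to 3′. Capitals mark the GC box GGGCGG in either orientation.
FRZB: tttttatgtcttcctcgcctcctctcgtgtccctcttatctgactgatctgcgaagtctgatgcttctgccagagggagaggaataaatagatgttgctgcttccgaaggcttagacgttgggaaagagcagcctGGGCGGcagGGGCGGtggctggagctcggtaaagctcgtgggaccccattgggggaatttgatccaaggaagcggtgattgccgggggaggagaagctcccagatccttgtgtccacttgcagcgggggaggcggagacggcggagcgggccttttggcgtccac
SFRP2: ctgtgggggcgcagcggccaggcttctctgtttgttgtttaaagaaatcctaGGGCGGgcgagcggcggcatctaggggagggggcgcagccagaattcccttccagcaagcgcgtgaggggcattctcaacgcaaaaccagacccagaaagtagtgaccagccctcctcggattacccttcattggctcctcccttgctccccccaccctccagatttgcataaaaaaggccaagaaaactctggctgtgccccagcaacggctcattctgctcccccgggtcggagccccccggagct
WNT2: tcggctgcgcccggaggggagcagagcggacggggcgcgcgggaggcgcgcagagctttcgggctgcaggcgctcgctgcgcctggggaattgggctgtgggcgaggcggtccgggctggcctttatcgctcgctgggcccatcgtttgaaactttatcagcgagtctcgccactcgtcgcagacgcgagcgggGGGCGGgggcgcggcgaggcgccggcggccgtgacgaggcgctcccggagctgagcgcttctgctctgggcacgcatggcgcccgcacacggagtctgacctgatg

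The FRZB window holds 2 GC boxes and the others 1 each, and 45% of all 35116 windows hold one or more. The GC content was 58.3% for FRZB, 60.3% for SFRP2 and 72.7% for WNT2, against a median of 58.7% over all windows. CpG dinucleotides numbered 17, 15 and 43, against a median of 14. The LEF/TCF core CTTTGAT and the E-box CACGTG, searched on both strands, were in none of the 29 windows of 24 measured members, and in 2.62% and 7.26% of all windows. Longer upstream sequence was not searched.

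**Figure D3:**
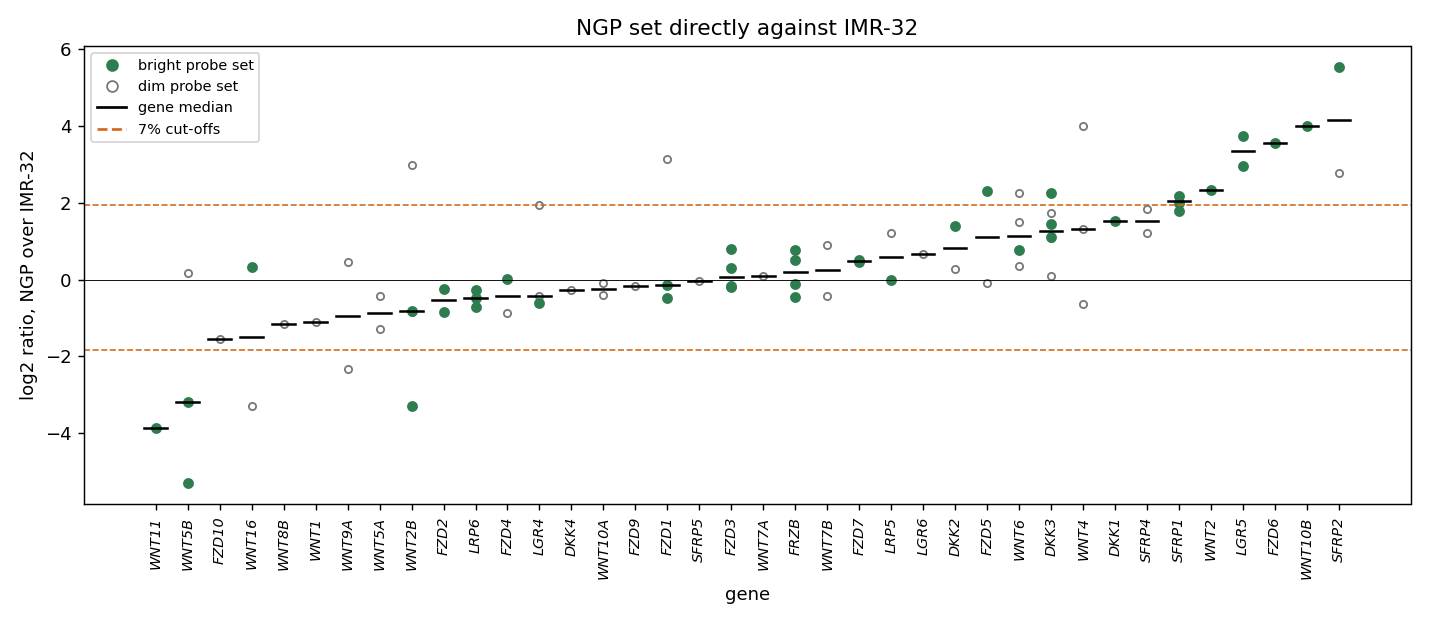
Log2 ratio of NGP over IMR-32 (y-axis) for the 38 measured members (x-axis, ordered by gene median), with bright probe sets as filled circles, dim ones as open circles, gene medians as bars and the cut-offs as dashed lines. WNT11 and WNT5B lie below the lower cut-off of -1.84, and SFRP1, WNT2, LGR5, FZD6, WNT10B and SFRP2 above the upper cut-off of 1.95.

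The wider pathway was read from 7 lists with 63 measured genes, of which 4 stand in more than 1 list. In IMR-32, 8 were called higher (12.7%) and 4 lower (6.35%), in NGP 7 higher (11.1%) and 7 lower (11.1%), and for NGP over IMR-32 5 were higher (7.94%) and 6 lower (9.52%), against 7.0% of all genes in each case. With a bright probe set the counts were 6 higher (9.52%, against 4.34% of all genes) and 2 lower (3.17%, against 4.73%) in IMR-32. They were 6 (9.52%, against 4.31%) and 6 (9.52%, against 5.07%) in NGP, and 2 (3.17%, against 3.02%) and 4 (6.35%, against 3.50%) for NGP over IMR-32. The destruction complex and cytoplasmic transducers comprised 13 genes with medians of -0.29 in IMR-32 and -0.26 in NGP, close to the -0.23 and -0.22 of all genes. In every array 12 of them reached the array median (92.3%, against 52.7% of all genes). Single genes of the list ranged in NGP from -2.10 for AXIN1 to 3.03 for AMER1. CTNNB1, which encodes beta-catenin, was at 0.85 and 0.07, with signals of 3084, 2315 and 2203. APC, the scaffold of the destruction complex, was called higher in both lines, at 2.27 in IMR-32 and 1.94 in NGP, with all 5 probe sets above the pool. AMER1, an APC-binding protein, was called higher in NGP, from a signal of 99.8 that just reached the array median.

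Among nuclear effectors, TLE4, a corepressor, was called higher in NGP (2.49) and PYGO1, a beta-catenin cofactor, in IMR-32 (2.15). In each line 8.33% of the 12 genes were thus called higher, against 7.0% of all genes, and none was called lower. TLE4 was also above the pool in IMR-32, at 1.52 without a call. PYGO1 was at -0.90 in NGP, where its 3 probe sets ran from -0.95 to 1.91. The brightest of them was above the pool in both lines, at 2.21 in IMR-32 and 1.91 in NGP. LEF1 was at -0.77 in IMR-32 and -1.92 in NGP without a call, and its 3 probe sets disagreed, from -7.57 to -0.07 in IMR-32. In the brightest of them its signals were 3.55, 110 and 675. Of the planar polarity genes, VANGL2 was called higher in both lines (2.97 and 2.27), with signals of 1375, 843 and 175. VANGL1 was called lower in NGP (-3.06), and NGP over IMR-32 was -1.94 for VANGL1 and -2.04 for CELSR3, both called.

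At the cell surface, the ubiquitin ligases ZNRF3 and RNF43, which remove Frizzleds from the membrane, differed in direction in IMR-32. ZNRF3 had signals of 3067 in IMR-32, 674 in NGP and 689 in the pool, so that IMR-32 alone was high (2.15) and NGP over IMR-32 was -2.19. RNF43 had signals of 14, 8.87 and 480, and was called lower in IMR-32 (-5.10) and NGP (-5.76). ROR2, a receptor for WNT5A, was called higher in both lines (2.04 and 1.97). Its 1 probe set had signals of 110 in IMR-32 and 105 in NGP, just past the array medians, and a dim 26.7 in the pool. The size of these ratios is thus not firm. The DKK receptor KREMEN1 was lower in NGP than in IMR-32 (-2.82, probe sets from -4.25 to 0.11), and TSPAN12, a partner of FZD4, was higher (2.03). The R-spondins RSPO1, RSPO2 and RSPO4 were called in some comparison from dim signals alone, and WLS, which carries WNT proteins to the surface, was at 1.18 and 1.37.

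The 6 other antagonists measured were below the pool in both lines, with medians of -2.71 in IMR-32 and -2.87 in NGP. Of all genes, 41.6% were above 0 in IMR-32 and 42.3% in NGP, with medians of -0.23 and -0.22. WIF1, which binds WNT proteins, was called lower in NGP (-4.29) from a pool signal of 156. APCDD1, a membrane inhibitor, was called lower in NGP (-3.04), with signals of 250 in IMR-32, 17.3 in NGP and 961 in the pool in the brighter probe set. Its probe sets were at -5.79 and -0.29 in NGP, so the call is the midpoint of values that disagree. SOST and SOSTDC1 were called from dim signals. In the same lines SFRP1 and FRZB were above the pool, so the antagonists did not share one direction.

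Most of the genes listed as targets that beta-catenin activates lay below the pool, as did most of all genes. Of 11 measured, 3 were above 0 in IMR-32 (27.3%, against 41.6% of all genes) and 2 in NGP (18.2%, against 42.3%). LGR5 and DKK1, also targets of beta-catenin, are members and were not counted in this list. LGR5 was at 0.54 in IMR-32 and 3.89 in NGP, and DKK1 at -0.49 and 1.02. The medians were -1.03 and -0.65, against -0.23 and -0.22 for all genes. In IMR-32, 2 were called higher (18.2%) and 2 lower (18.2%), and in NGP 1 higher (9.09%) and 3 lower (27.3%), each against 7.0% of all genes. AXIN2, a negative regulator of the pathway and a widely used readout of it, was at 1.96 in IMR-32 (called) and 1.81 in NGP (not called), and NGP over IMR-32 was -0.19. Its 4 probe sets disagreed over the pool, with a range of 0.49 to 2.49 in IMR-32 and of -0.24 to 2.47 in NGP, with the brightest at the low end (signals of 1074, 644 and 763). CCND1, the cyclin D1 gene, was called higher in NGP (2.17), with signals of 7259 in IMR-32, 9668 in NGP and 2780 in the pool. MYC was called lower in IMR-32 (-11.0) and NGP (-8.07), with dim signals of 11.1 and 85.3 and a pool signal of 22905. ASCL2, an intestinal stem cell factor, was called lower in NGP (-3.48, probe sets at -5.74 and -1.22). In IMR-32 it was at -2.78, just short of the cut-off of -2.83. Its brighter probe set had signals of 9.34 in IMR-32, 6.48 in NGP and 346 in the pool.

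**Figure D4:**
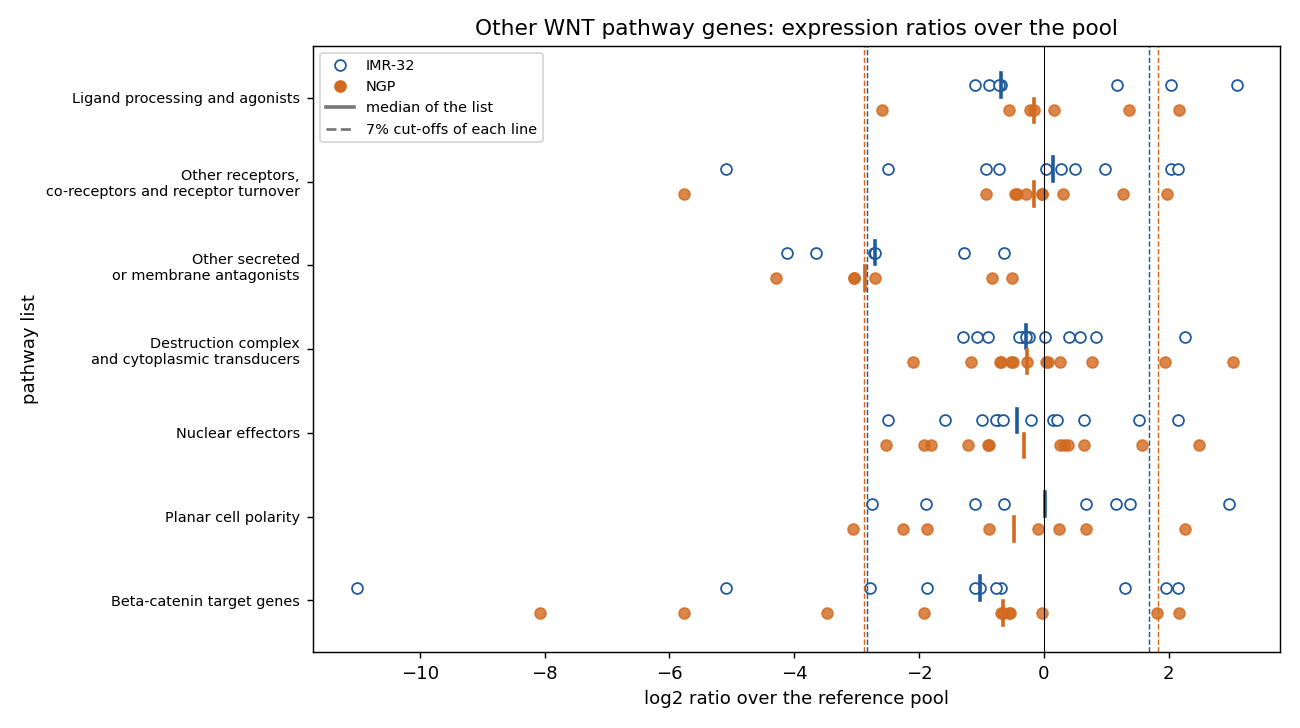
Log2 ratios over the reference pool (x-axis) of the other WNT pathway genes by list (y-axis), drawn open for IMR-32 and filled for NGP, with the median of each list as a vertical bar and the cut-offs of each line as dashed lines. The 6 other antagonists all lie below 0 (medians -2.71 and -2.87), and the destruction complex genes lie on both sides of 0 (medians -0.29 and -0.26).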

How the data were processed

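RNA of IMR-32, NGP and Reference was measured on 1 array each. Values were deposited as signal intensities on a linear scale, computed by the authors with MAS5 in affy (Bioconductor, version not stated in the paper or labels). Each array has a mean of 500 without the highest and lowest 2% of signals. MAS5 corrects each probe with its mismatch probe, which makes low signals unsteady, so ratios of dim probe sets are large and uncertain.

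Of 54675 probe sets, 62 controls were left out, 41091 name 1 gene, 1801 several and 11721 none. Those with 1 gene, matched by gene ID to the RefSeq table (41037), were used. Ratios were taken on the log2 scale without a pseudocount, with the median over probe sets per gene and calls over all 19735 genes across the genome. The 7% at each end is the share that the study's methods use for ratios of a line over the pool. Here it was applied to gene medians, and also to NGP over IMR-32, which the methods do not describe. No significance test was run. Members and lists were chosen with earlier results of these data known, and the GC box after the windows were seen. Signals in every array are given for members called with a bright probe set, and also for some others that were picked with their values known. Of the pathway genes, those called with a bright probe set and CTNNB1, AXIN2 and LEF1 were to be named. WLS, SOST, SOSTDC1 and the R-spondins were added with their values known. The calling script was checked on simulated ratios, from which no value is given here. The 10 alternatives were median-centred ratios, quantile normalization, log2(signal + 32), omission of dim probe sets, use of the brightest probe set or of the mean in place of the median, _s_at and _x_at probe sets left out, 5% and 10% cut-offs, and cut-offs over probe sets. Python 3.11.15, numpy 2.4.6, pandas 2.3.3 and matplotlib 3.10.9 were used.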

Additional observations from a re-analysis of the deposited data

Results flagged for a closer look

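WNT4, WNT5B and SFRP2 lay more than 1 (log2) from the pool in opposite directions in the 2 lines. The difference between the lines was not tested, since each has 1 array. WNT4 was at -1.01 in IMR-32 and 1.93 in NGP, from signals below the array median in all arrays, and with its brightest probe set alone it was above the pool in both, at 1.05 and 2.36. WNT5B was at 1.30 in IMR-32 and -1.87 in NGP. SFRP2 was at -2.07 in IMR-32 and 2.09 in NGP, where only the NGP signal of 1 probe set reached its array median.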

How the results depend on the processing

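Of 20 calls of members, 12 remained under every alternative run and none changed sign. Not every alternative could lose a call. Median-centring shifts ratios and cut-offs alike, and the 10% cut-offs are looser than those used. WNT2, WNT10B, WNT11 and FZD6, whose calls are among those kept, have 1 probe set each. For them the choice or averaging of probe sets alters only the cut-off. The calls of FZD3 and FZD9 in IMR-32 and of WNT1, WNT4, WNT5A, SFRP2 and FRZB in NGP, and that of SFRP1 in NGP over IMR-32, were lost under at least 1. SFRP1, SFRP2 and WNT5B have only _s_at probe sets and could not be rerun without them. Members called higher in IMR-32 (2) were 1 with quantile normalization and without _s_at and _x_at probe sets, 4 with log2(signal + 32) and with the top 10%, and 0 with the top 5% and with cut-offs over probe sets. Those called lower in IMR-32 (2) were 4 with the brightest probe set and 6 with the bottom 10%. Those called higher in NGP (5) were 2 at the top 5%, with cut-offs over probe sets and without _s_at and _x_at probe sets, and those lower in NGP over IMR-32 (2) were 4 with the bottom 10%. The other counts moved by at most 1.5 times. Without _s_at and _x_at probe sets only 31 of the 38 members were measured, and SFRP1 and SFRP2, both called higher in NGP, dropped out. With dim probe sets left out, 25 members were measured in IMR-32, 26 in NGP and 24 for NGP over IMR-32. Beyond the altered cut-offs and the members lost, the cause of these changes was not tested. Quantile normalization moved the median of all genes of IMR-32 from -0.23 to -0.02 and that of NGP from -0.22 to -0.07, and the median of the members to -0.08 and -0.14. No detection calls were used, so whether a dim gene exceeds background is not known.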

Other observations

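Some members have probe sets that point in different directions in the same line. LGR4 had probe sets from -1.02 to 2.96 in NGP, where the one at 2.96 had a dim NGP signal of 65.7 and a pool signal of 8.45. FZD4 had probe sets at -1.40 and 1.57 in IMR-32, and WNT16 at 0.60 and -3.41 in NGP. DKK2 had probe sets at -2.10 and 3.32 in NGP, and only the second, with an NGP signal of 102, reached the array median in any array. For FZD4, WNT16 and DKK2, with 2 probe sets each, the median lies between values of opposite sign.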
